A study of Mus musculus with 104 samples.

Results

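Myelin and mature oligodendrocyte genes were followed through the messenger RNA of mouse cerebral cortex as a set of 32 genes, listed by name and not by their values here, of 24060 genes in the RefSeq count table. All 32 were among the 15723 genes with enough reads to be tested. The cortices came from wild type C57BL/6 mice, all 6 months old and untreated as far as the labels say. The mice came from 13 lines named after a gene, with 4 female and 4 male libraries in each. In the order of their mean myelin RNA, lowest first, these were Gsg1l, Tbc1d8, Ppp1ca, Rgs9, Arpp19, Ece2, Zswim6, Morf4l1, Dach1, Hrk, Rasgef1a, Kdm3b and Pcdh20. No mouse carried a mutant allele by its label, so a line is a set of control animals, and because the labels tag these sets as batches, line and batch cannot be told apart. The questions were how far the 32 genes rise and fall together between cortices, which of them depart, and whether the lines or the sexes differ.

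Oligodendrocytes wrap axons in myelin, a compacted stack of their own membrane that speeds conduction and feeds the axon. Myelin basic protein (Mbp) glues the cytoplasmic faces of the stack, Mog, Mag, Mobp and Mal sit in or on the membrane, and Cldn11 seals its layers with tight junctions. The transcription factor Myrf switches the myelin programme on when precursors mature. In cortex, myelinated fibres are densest in the deep layers and in the white matter beneath them, so the amount of myelin RNA in a piece of tissue can also depend on how deep the piece reaches. In bulk tissue, fewer oligodendrocytes and less RNA per oligodendrocyte cannot be told apart.

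Libraries held between 3.39 and 33.5 M reads in genes, with a median of 28.4 M. Kdm3b female replicate 22 was the shallowest, and the next lowest held 23.9 M. Reads of 4 Y-linked genes and of Xist did not match the labelled sex in 3 libraries. These were Rgs9 female replicate 43, Rasgef1a female replicate 39 and Rasgef1a male replicate 40. They are called below by their labels and counted as libraries against their label. Rasgef1a female replicate 39 had neither, with 0 reads of the Y-linked genes and 2 of Xist, so only its Xist departs from the female label. The cortical neuron genes used as a check of the tissue were high in every library, with a mean log2 CPM (read counts per M reads) between 9.54 and 9.76. No pair of libraries of the same line and sex agreed within sampling noise, the lowest chi-square per degree of freedom being 2.55 over 156 pairs. The 32 genes took 0.193% to 0.318% of the reads of a library, with a median of 0.268%.

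The upstream sequences of 4 genes on which the account of shared and separate spread turns are shown here. Tmem88b is among the genes closest to the mean of the set, Mobp and Mal are the pair that moved most alike, and Apod is the gene that did not follow the set. Each is the 250 bases before the RefSeq start on GRCm38.p6, 5′ to 3′ on the strand of the gene. They lie at chr4:155785875-155786124, minus strand for Tmem88b, chr9:120149492-120149741, plus strand for Mobp, chr2:127656696-127656945, minus strand for Mal and chr16:31314809-31315058, minus strand for Apod. Capitals mark matches on either strand to ACAAAG, letters bound by Sox factors such as Sox10. A second motif, CTGGCAC, letters bound by Myrf, was searched on both strands and had no match in these 4.
Tmem88b: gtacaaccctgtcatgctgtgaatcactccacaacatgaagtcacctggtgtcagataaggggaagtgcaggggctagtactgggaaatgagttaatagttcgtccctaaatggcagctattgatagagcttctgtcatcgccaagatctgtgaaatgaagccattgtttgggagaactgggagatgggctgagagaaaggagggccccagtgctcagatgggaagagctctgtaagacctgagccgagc
Mobp: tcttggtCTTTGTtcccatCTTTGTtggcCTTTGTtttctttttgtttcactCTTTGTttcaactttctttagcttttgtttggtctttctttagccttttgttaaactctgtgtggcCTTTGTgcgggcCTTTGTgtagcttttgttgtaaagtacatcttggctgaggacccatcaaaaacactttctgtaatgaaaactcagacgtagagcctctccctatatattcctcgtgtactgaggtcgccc
Mal: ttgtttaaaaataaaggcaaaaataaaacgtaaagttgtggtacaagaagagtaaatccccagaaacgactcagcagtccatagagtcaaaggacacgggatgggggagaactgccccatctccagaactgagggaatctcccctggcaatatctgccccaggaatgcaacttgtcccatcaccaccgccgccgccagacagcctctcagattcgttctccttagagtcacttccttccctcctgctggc
Apod: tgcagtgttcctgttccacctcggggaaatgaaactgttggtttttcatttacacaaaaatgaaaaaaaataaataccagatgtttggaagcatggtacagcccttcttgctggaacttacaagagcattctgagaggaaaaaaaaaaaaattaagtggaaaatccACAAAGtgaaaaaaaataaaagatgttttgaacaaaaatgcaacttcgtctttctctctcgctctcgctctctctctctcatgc
Mobp held 6 matches to ACAAAG, all read on the other strand, Apod held 1, and Tmem88b and Mal held none. Of the 32 genes, 25 had an entry in the promoter table. ACAAAG was present upstream of 7 of these 25, against 16.5% of all 27025 promoters, and CTGGCAC upstream of 3 of 25, against 4.14% of all promoters. These are letter matches, not measured binding, and Mobp and Mal, whose RNA moved together, did not share them.

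Per length, the set covered more than 2 orders of magnitude. Mbp was the most abundant at 164 ± 16.6 FPKM (mean ± SD over all libraries; fragments per kilobase per M fragments, the authors' scaling). Next stood Qdpr, which regenerates a cofactor of amino acid hydroxylases, at 76.0 ± 5.57 FPKM, Plekhb1 at 71.8 ± 4.77 FPKM and the carbonic anhydrase Car2 at 67.1 ± 4.43 FPKM, 3 neighbours whose ranges overlap. The iron carrier Trf averaged 57.7 ± 8.68 FPKM and Cnp, the myelin cyclic nucleotide phosphodiesterase, 57.3 ± 5.35 FPKM. At the low end were the transcription factor Nkx6-2 at 2.09 ± 0.315 FPKM, Ninj2 at 1.30 ± 0.327 FPKM and the secreted protease Klk6 at 0.509 ± 0.216 FPKM. Klk6 rested on a median of 19 reads per library and Ninj2 on 30.5, against 32110 for Mbp, so single values of the lowest genes carry much counting error.

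The 32 genes varied together across cortices. Over all libraries a gene's log2 CPM correlated with the mean of the other 31 with a median Pearson r of 0.65, and 22 of the 32 genes had r above 0.5. Of the 496 pairs of genes, 458 had r above 0. The first principal component of the 32 genes held 44.7% of their variance and followed their mean (r = 0.99). All values of this kind are descriptions of these libraries, with no test, because the set was chosen with earlier results of the data known. With line and sex means removed the median r was 0.65, and without the 2 libraries farthest from the median it was 0.61.

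The mean of the 32 genes itself spread about as much as a typical tested gene. Its SD was 0.126 on the log2 CPM scale, against a median SD of 0.122 over all tested genes. All but 5 libraries lay within 0.25 of the median of this mean. The lowest was Zswim6 female replicate 50, which lay 0.53 below the median, followed by Ece2 male replicate 12, and the highest was Pcdh20 female replicate 30, at 0.26 above it. Between these extremes the mean differed 1.73-fold. Mbp, as an example, had 728 CPM in Zswim6 female replicate 50, a median of 1114 CPM and 1371 CPM at the highest. The highest was in Rasgef1a female replicate 39, the library with neither Y-linked nor usual Xist reads. The r of the mean with total reads was -0.02. The raw share of the variance of the mean that lay between lines was 11.6%, not corrected for the number of lines. Line means of a few libraries each differ even where lines do not, so this share alone shows no difference between lines.

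**Figure D1:**
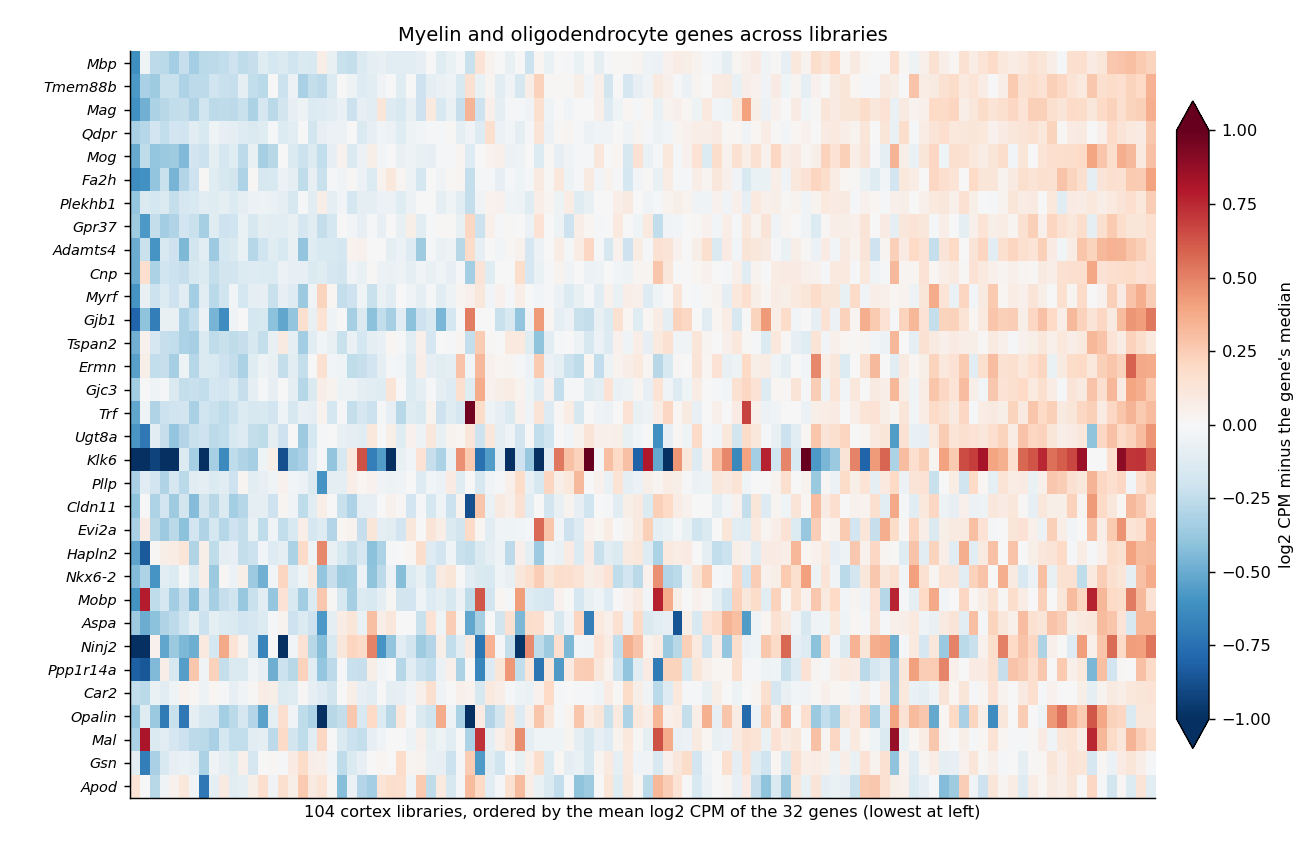
Heat map of the 32 genes (rows, ordered by their correlation with the mean of the others) in all cortex libraries (columns, ordered by the mean of the set), coloured by log2 CPM minus the gene's median and limited at 1. Most rows turn from blue to red from left to right; Apod at the bottom does not, and Mal and Mobp are dark red in 5 scattered libraries.

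Proteins of the sheath stood closest to the set, together with 1 enzyme. Mbp (r = 0.86), the membrane protein Tmem88b (0.86), Mag, the axon-facing adhesion protein (0.86), and Qdpr (0.83) had the highest r with the mean of the others. Mag ran from 65.8 CPM in Zswim6 female replicate 50 through a median of 100.1 CPM to 133 CPM in Rgs9 female replicate 43, a library against its label. Tmem88b ran from 26.1 CPM in the same Zswim6 library through 38.8 CPM to 49.4 CPM in Pcdh20 female replicate 30. Both were lowest in the library with the lowest mean of the set. The r of a gene leaves that gene out of the mean. The surface protein Mog (0.83) and Fa2h, which hydroxylates the fatty acids of myelin lipids (0.80), stood just behind.

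Grouped by role, the genes differed little in how closely they followed the set, apart from the regulators. The median r was 0.68 over the 15 membrane and adhesion proteins and also 0.68 over the 2 connexins Gjb1 and Gjc3, which couple oligodendrocytes to astrocytes. It was 0.65 over the 5 lipid and metabolic enzymes, 0.61 over the transcription factors Myrf and Nkx6-2, 0.58 over the 5 secreted and extracellular proteins and 0.41 over the 3 signalling and cytoskeletal regulators Gpr37, Gsn and Ppp1r14a. Every role with more than 2 genes held both genes near the mean and genes away from it. Among the enzymes, Car2 had an r of 0.39, and among the regulators Gpr37, an orphan receptor of maturing oligodendrocytes, had an r of 0.77.

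**Figure D2:**
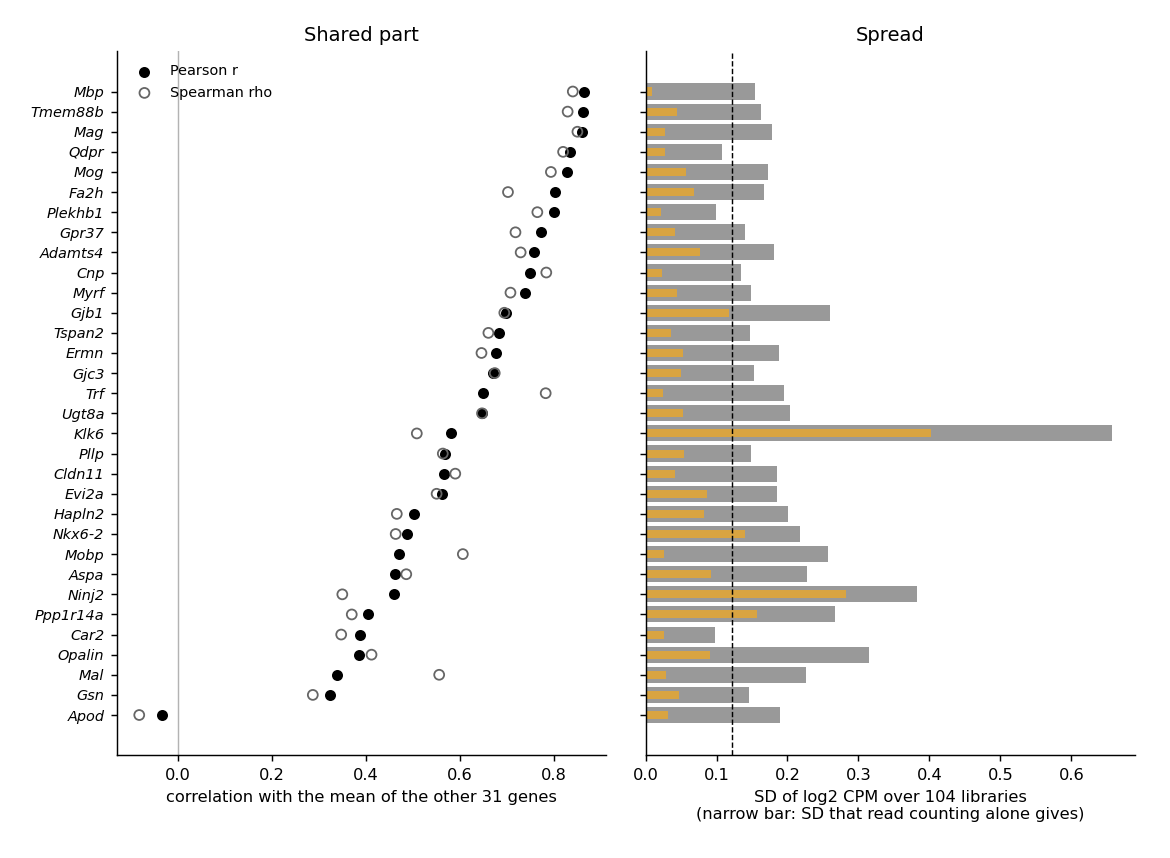
Left, Pearson r and Spearman rho of each gene with the mean of the other 31 over all libraries; right, SD of log2 CPM per gene (wide bars), the SD that read counting alone would give (narrow bars) and the median SD of all tested genes (dashed line, 0.122). Apod lies near 0 on the left, Mal and Mobp have a higher rho than r, and Klk6 has the longest bar on the right.

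The set varied more than most genes. The median SD of log2 CPM was 0.183 over the 32 genes, against 0.122 over all tested genes, and the biological coefficient of variation that edgeR fits was above that of the median gene for 30 of 32. The largest SDs belonged to Klk6 (0.66), Ninj2 (0.38), the membrane protein Opalin (0.31) and Ppp1r14a (0.27), a phosphatase inhibitor. Counting alone would give 37.4% of the variance of Klk6, 54.6% of that of Ninj2 and 34.7% of that of Ppp1r14a, but 8.46% of that of Opalin. Klk6 ran from 0.0363 CPM in Ece2 male replicate 12, which held a single read, through a median of 0.674 CPM to 1.501 CPM in Pcdh20 male replicate 31. Opalin ran from 3.93 CPM in Rasgef1a male replicate 37 through 9.71 CPM to 14.9 CPM in Rasgef1a female replicate 37, so both ends fell in the same line.

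Mal and Mobp formed the tightest pair of all 496. Mal, a lipid raft protein that sorts myelin cargo, and Mobp, a small basic protein of the compact sheath, correlated with r = 0.94 (rho = 0.90) over all libraries, while Mal correlated with the mean of the other 31 genes with r = 0.34 (rho = 0.56). The second principal component, with 14.4% of the variance, was led by Mal, Mobp, Cldn11, Tspan2 and Cnp at one end and by Car2 and Gsn at the other. Tspan2 (r = 0.76), Cnp (0.75) and Cldn11 (0.75) were the next closest of the set to Mal.

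5 libraries stood apart in this pair. Mal reached 171 CPM in Gsg1l female replicate 14, 165 CPM in Ece2 male replicate 12, 158 CPM in Rasgef1a female replicate 37, 154 CPM in Ppp1ca female replicate 36 and 146 CPM in Zswim6 female replicate 52, with 129 CPM in the sixth highest library and a median of 93.5 CPM over all libraries. Mobp had 198, 200.1, 198, 179 and 198 CPM in the same 5 libraries, against a median of 116 CPM. They came from 5 lines and both sexes, all on plate 1. The same 5 held little Car2, with 93.8, 99.7, 112, 108 and 99.7 CPM against a median of 120 CPM, and little of the actin-severing protein Gsn, with 26.6, 21.8, 31.4, 23.8 and 31.7 CPM against a median of 35.2 CPM. Mbp was ordinary in them, between 1071 and 1255 CPM. Without these 5 libraries Mal and Mobp still correlated (r = 0.90, n = 99) and Mal rejoined the set (r = 0.61 with the mean of the others), while the inverse relation of Mal with Car2 was not seen (r = -0.34 with the 5 libraries, 0.08 without). The genes outside the set that went most with Mal were Wasf3 (r = 0.74), Ak3 (0.73), Clic4 (0.73) and Ahcyl1 (0.71), and Fabp7 went most against it (-0.67). Their rho was lower, between 0.40 and 0.62 for the first 4.

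**Figure D3:**
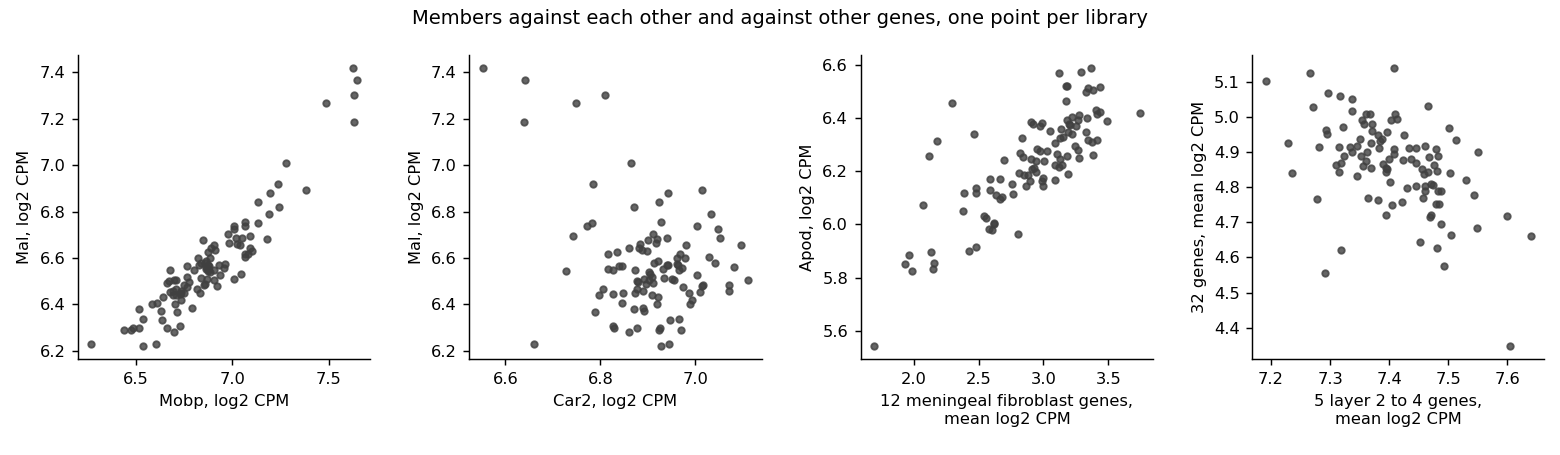
Log2 CPM of Mal against Mobp and against Car2, Apod against the mean of 12 meningeal fibroblast genes, and the mean of the 32 genes against the mean of 5 layer 2 to 4 neuron genes; each point is a library. In the first 2 panels 5 libraries lie above the rest in Mal; Apod is higher where the meningeal genes are (r = 0.78, fixed in part because 5 of the 12 were among its closest genes), and the set is lower where the upper layer genes are higher (r = -0.50).

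Apod did not follow the set. Apolipoprotein D, a secreted lipid carrier made by oligodendrocytes and also by fibroblasts and pericytes, had an r of -0.03 with the mean of the other 31 genes (rho = -0.08), and r was above 0 within 5 of the 13 lines. It ran from 46.6 CPM in Gsg1l female replicate 16 through a median of 76.3 CPM to 96.1 CPM in Zswim6 female replicate 52. It had a median of 2203 reads per library, and counting alone would give 2.91% of its variance. The genes closest to it in the whole table were Mgp (r = 0.80), Dcn (0.79), Gjb2 (0.79) and Ogn (0.78), matrix and junction genes of the meninges. The mean of 12 meningeal fibroblast genes, a list added after these neighbours were seen, correlated with Apod with r = 0.78 (rho = 0.77) and with the mean of the 32 genes with r = -0.17. The list holds Mgp, Dcn, Ogn, Islr and Bgn, all among the 8 genes closest to Apod, so its r with Apod is fixed in part by that choice and supports nothing. The mean of the list was lowest, at 1.69 log2 CPM, in the same Gsg1l library in which Apod was lowest, and ran up to 3.74. The part of meningeal tissue in the dissected pieces in the spread of Apod was not tested.

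Trf and Opalin departed in a few libraries. Trf, which carries iron to the maturing sheath, reached 259 CPM in Morf4l1 male replicate 26 and 211 CPM in Rgs9 female replicate 43, the library against its label, against 167 CPM in the third highest and a median of 132 CPM. Opalin was low in both, at 4.79 and 5.67 CPM, and Cldn11 had its lowest value of all, 24.6 CPM, in Morf4l1 male replicate 26, against a median of 45.3 CPM. Ttr, which defines the choroid plexus, stood at 0.0357 CPM in Morf4l1 male replicate 26 and 0.388 CPM in Rgs9 female replicate 43, against a median of 0.316 CPM over all libraries. Rasgef1a male replicate 37, the library with the lowest Opalin, held the highest Ttr, at 286 CPM, and its choroid plexus score was 3.30 against a median of -1.22. The part of choroid plexus tissue in that library's Opalin value was not tested. Within the set Opalin moved most like Pllp, a tetraspan membrane protein (r = 0.73).

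Genes that are not in the set gave the same picture of its shared part. Of 30 other oligodendrocyte genes, 29 had r above 0 with the mean of the 32, and their own mean correlated with it with r = 0.92 (rho = 0.90). Among the genes of the whole table closest to the mean were Gatm (r = 0.80), an enzyme of creatine synthesis, Prr18 (0.78), Tmem63a (0.77), Plekhh1 (0.77), Sept4 (0.75), Ttyh2 (0.75), Scn4b (0.74), Cntn2 (0.71), Sox5 (0.71), Phldb1 (0.70) and Pcp4 (0.69). Scn4b, Sox5 and Pcp4 are also genes of neurons, and Sox5 and Pcp4 mark deep layers. Of 3 lineage factors, Sox10 followed the set (r = 0.60), while Olig1 (0.13) and Olig2 (0.04) did not. The mean of 7 precursor genes had an r of -0.26.

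Layer genes correlated with the set unevenly. The set correlated with the mean of 8 genes of layer 5 and 6 neurons with r = 0.45 (rho = 0.40) and with that of 5 genes of layer 2 to 4 neurons with r = -0.50 (rho = -0.47), over the same libraries. The positive relation was not particular to the deep layer list. The mean of the 7 cortical neuron genes used as a check of the tissue had r = 0.48 (rho = 0.44), with 6 of the 7 above 0. Of the upper layer genes, Calb1 (r = -0.62), Rasgrf2 (-0.52) and Cux2 (-0.33) went against the set, while Cux1 (-0.06) and Rorb (-0.03) lay near 0. Of the deep layer genes 7 of 8 had r above 0, from 0.14 for Rprm to 0.56 for Syt6, and Ctgf had -0.03. The genes farthest on the negative side in the whole table were Bhlhe22 (r = -0.73), Scn3b (-0.71), Dusp18 (-0.71) and Wfs1 (-0.70), of which Bhlhe22 is a transcription factor of cortical projection neurons. The lists share the libraries, the scaling and the total of each library with the set. Zswim6 female replicate 50, with the lowest mean of the set, had a layer 2 to 4 mean of 7.61 log2 CPM against a median of 7.40. Ece2 male replicate 12, with the second lowest, had 7.29, below that median, and Pcdh20 female replicate 30, with the highest, had 7.41. The part of the depth of dissection in the shared spread was not tested. The means of astrocyte (r = -0.25), microglia (-0.31), hippocampal (-0.27), thalamic (-0.31) and choroid plexus genes (-0.17) moved weakly against the set. That of striatal genes had an r of 0.02. Single genes were mixed, with r above 0 for 3 of 8 astrocyte, 3 of 6 hippocampal, 3 of 6 thalamic and 1 of 5 choroid plexus genes. Of the 7 microglia genes 0 had r above 0. The hippocampal list holds Wfs1.

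Between lines, none of the 32 genes passed the test. The F-test over the 13 lines in edgeR's quasi-likelihood fit, with sex as a term and Benjamini-Hochberg adjustment over all tested genes, called 0 of 32 at an adjusted p under 0.05, while it called 9.61% of all tested genes. DESeq2 and limma on FPKM also called 0 of 32. An unadjusted p under 0.05 was reached by 3 of the 32, where 23.5% of all tested genes reached it. They were Ugt8a (adjusted p = 0.17), which adds galactose to the main myelin lipids, Adamts4 (0.19), a matrix protease of mature oligodendrocytes, and Tspan2 (0.21). The median F was 1.26 over the 32 genes and 1.28 over all tested genes. The highest line mean of a gene exceeded its lowest by 1.07-fold for Plekhb1 and Car2, up to 1.31-fold for Mobp and 1.72-fold for Klk6.

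**Figure D4:**
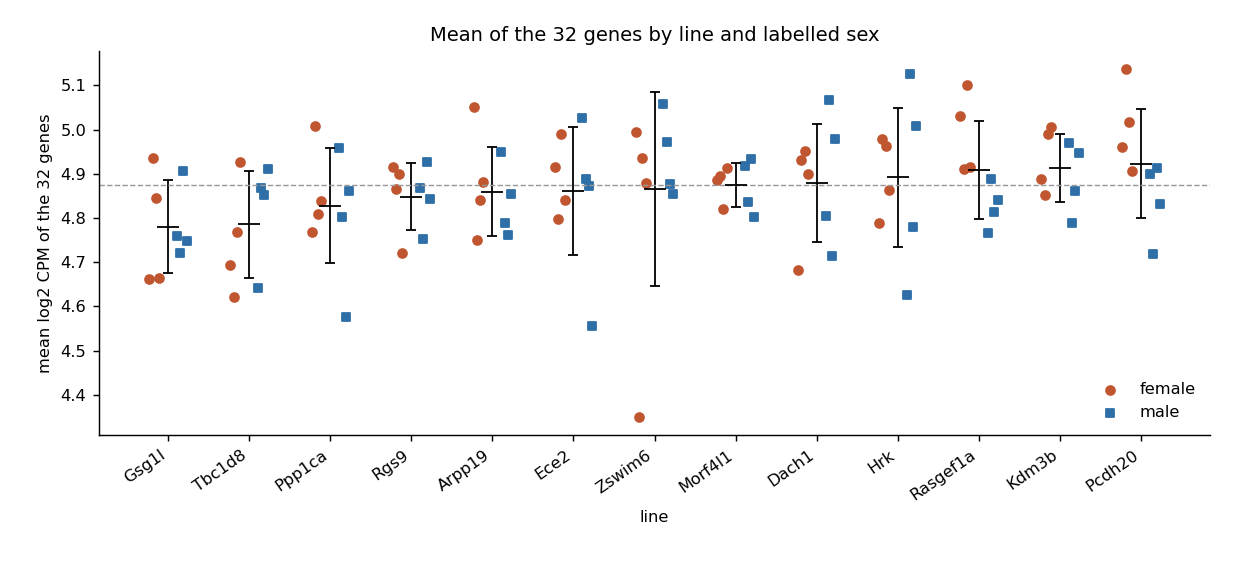
Mean log2 CPM of the 32 genes in each library by line (ordered by the line's mean), females as circles left of males as squares; black bars give the mean and SD of the 8 libraries of a line and the dashed line the median of all libraries. Gsg1l and Tbc1d8 have the lowest means, every line overlaps its neighbours, and Zswim6 female replicate 50 is the lowest point.

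Gsg1l and Tbc1d8 were the lowest lines. The mean of the 32 genes was 4.78 ± 0.105 log2 CPM in Gsg1l and 4.79 ± 0.121 in Tbc1d8 (SD, n = 8 each), and 4.92 ± 0.124 in Pcdh20, the highest. Neighbours in the order of lines differed by less than the SD of either line. Gsg1l female replicate 16 and Tbc1d8 male replicates 45 and 47 were on plate 2, as were libraries of Arpp19, Dach1, Morf4l1 and Rgs9. The mean of the set was lower on plate 2 (4.75 log2 CPM, against 4.87 on plate 1), and the line tests held no plate term. In Gsg1l all 32 genes lay below the mean of the other lines, with a median log2 difference of -0.086. In Tbc1d8 29 of the 32 did, with a median of -0.084. Over all tested genes the medians were 0.0057 in Gsg1l and 0.0050 in Tbc1d8. Because the 32 genes move together, these counts are not 32 separate results. Set against the mean of the other 12 lines, each line in turn, 1 of the 32 genes was called in 1 line, where 1.79% of all gene and line pairs were called, 10.4% of genes in Gsg1l and 12.4% in Tbc1d8. The called gene was Ugt8a in Gsg1l. Its 8 libraries there ran from 19.8, in female replicate 14, through a median of 25.1 to 29.04 CPM, with a mean of 25.3 ± 3.13 CPM (SD, n = 8), against 29.3 CPM as the mean of the other lines' means. It was lower in Gsg1l by a log2 difference of -0.21 (SE 0.07, adjusted p = 0.032). Libraries of Gsg1l and of the other lines overlapped, since the lowest Ugt8a of all, 17.7 CPM, was in Ece2 male replicate 12.

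A single library decided the calls in Gsg1l. Gsg1l female replicate 14, the library with the highest Mal of all, was above the mean of the other lines for 19 of the 32 genes, with 171 CPM of Mal, 198 CPM of Mobp and 1255 CPM of Mbp. Without it, edgeR called 8 of the 32 genes lower in Gsg1l, where it called 13.2% of all tested genes, and Ugt8a was no longer among them (log2 difference -0.17, adjusted p = 0.11). The 8 were Tspan2, Gjc3, Mbp, Mobp, Mog, Myrf, Cldn11 and Mal. The library was left out after its values were seen, and it lay above the other lines in all 8. Among them it stood apart as the highest of its line in Tspan2, Gjc3, Mobp, Cldn11 and Mal. Leaving out such a library lowers the Gsg1l mean, so the 8 calls and their adjusted p are fixed in part by that choice. Tspan2, a tetraspanin of the sheath, ran from 50.8 through a median of 58.6 to 61.5 CPM in the remaining 7 libraries. Its mean there was 56.5 ± 4.14 CPM, against 64.3 CPM in the other lines (log2 difference -0.19, SE 0.05, adjusted p = 0.0053). Mbp ran from 881 through 985 to 1090 CPM and averaged 983 ± 68.8 CPM in the 7 libraries, against 1111 CPM in the other lines (log2 difference -0.18, SE 0.06, adjusted p = 0.025). Mobp is, like Mbp, a basic protein of the compact sheath. It had 98.8 ± 9.36 CPM in the 7 libraries, against 121 CPM in the other lines (log2 difference -0.28, SE 0.09, adjusted p = 0.026). Myrf had 36.5 ± 3.94 CPM in the 7 libraries, against 40.98 CPM in the other lines (adjusted p = 0.039). Groups still overlapped library by library. The F-test over all lines then called Tspan2 alone of the 32, with 11.2% of all tested genes called. With that library, the same 8 genes had adjusted p between 0.069 (Myrf) and 0.74 (Mal).

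At the other end of the order no gene of the set was called in Rasgef1a, Kdm3b or Pcdh20. Of all tested genes 0.108%, 0% and 0.0127% were called in these lines. Pcdh20 had the highest mean of the set, with 27 of the 32 genes above the other lines. The median log2 difference there was 0.046 over the 32 genes, against -0.0009 over all tested genes. Rasgef1a held the highest line mean of Mbp, Mobp, Mal, Cldn11, Tspan2, Ermn, Mog, Gjc3, Cnp, Myrf and Plekhb1. Kdm3b held that of Adamts4, Tmem88b, Ppp1r14a, Fa2h, Opalin, Qdpr, Gpr37, Mag, Evi2a and Aspa. In Kdm3b 22 of the 32 genes lay above the other lines, with a median log2 difference of 0.048, against -0.0009 over all tested genes. In Rasgef1a Cldn11 averaged 50.6 ± 6.34 CPM, against 44.5 CPM in the other lines (log2 difference 0.18, SE 0.06, adjusted p = 0.24), and Mobp 141 ± 29.4 CPM, against 118 CPM (0.25, SE 0.09, adjusted p = 0.29). Rasgef1a was also the line with 2 of the 3 libraries against their labelled sex and with 1 of the 5 libraries of highest Mal.

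When the mean of the 30 other oligodendrocyte genes was held equal, edgeR called no gene between lines either. Its F-test at equal score called 0 of 32 genes, against 9.27% of all tested genes, with 5 of 32 at an unadjusted p under 0.05, against 23.3% of all tested genes, and DESeq2 called Adamts4. In the edgeR fit Adamts4 was closest to the threshold (adjusted p = 0.063), its line means running from 12.3 CPM in Tbc1d8 to 14.7 CPM in Kdm3b, followed by Tspan2 (adjusted p = 0.16).

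Between the sexes, 4 genes passed the test by small amounts. Mog, Cldn11 and the connexin Gjc3 were higher in females, and Klk6 was lower. In edgeR with line as a term, 3 of 32 genes were called higher in females, where 4.07% of all tested genes were, and 1 of 32 lower, where 4.5% were. Of the 32 genes, 23 had a positive difference, with a median of 0.034 on the log2 scale, against 0.00016 over all tested genes. DESeq2 called the same 4 genes, and limma on FPKM called Mog, Cldn11 and Klk6. The 2 sexes overlapped widely in every one of the 4.

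Mog ran from 17.1 through a median of 25.3 to 31.96 CPM in 52 females, against 17.9 through 23.7 to 31.3 CPM in 52 males. Its mean was 25.4 ± 2.86 CPM in females and 23.8 ± 2.69 CPM in males (SD, n = 52 each; log2 difference 0.10, SE 0.03, adjusted p = 0.035), higher in females in 11 of 13 lines. Cldn11 averaged 46.5 ± 5.87 CPM in females and 43.4 ± 4.78 CPM in males (0.10, SE 0.03, adjusted p = 0.041), higher in females in 10 of 13 lines. Mog marks the outer face of the sheath and Cldn11 its tight junctions. Gjc3 averaged 32.9 ± 3.71 CPM in females and 31.03 ± 2.92 CPM in males (0.08, SE 0.03, adjusted p = 0.042), higher in females in 10 of 13 lines. Klk6 ran from 0.119 through 0.571 to 1.18 CPM in females, against 0.0363 through 0.766 to 1.501 CPM in males. It averaged 0.629 ± 0.282 CPM in females and 0.806 ± 0.305 CPM in males (-0.35, SE 0.12, adjusted p = 0.042), lower in females in 10 of 13 lines. Mobp came next, at 125 ± 26.3 CPM in females and 115 ± 18.9 CPM in males (0.13, SE 0.05, adjusted p = 0.070).

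**Figure D5:**
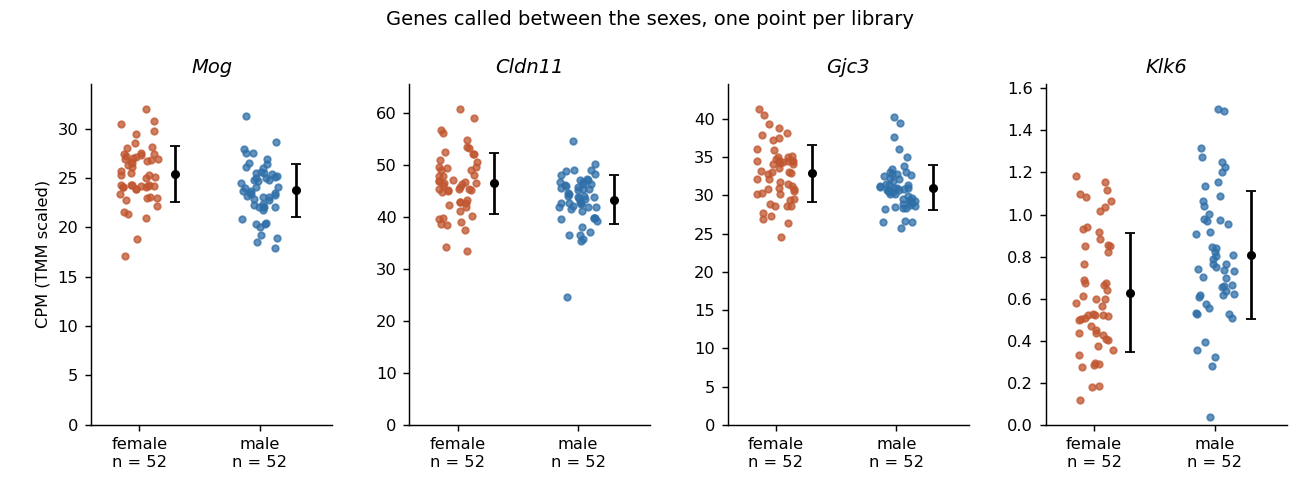
CPM of Mog, Cldn11, Gjc3 and Klk6 in 52 female and 52 male libraries by labelled sex; each point is a library and the black marks give the mean and SD. The sexes overlap in all 4 panels, and the means differ by less than 1 SD.

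The calls lay near the threshold. Without Gsg1l female replicate 14 only Klk6 was still called of the 32, where 8.39% of all tested genes were called, and the adjusted p was 0.054 for Mog, 0.067 for Cldn11 and 0.066 for Gjc3, at log2 differences of 0.09, 0.09 and 0.08. Without Zswim6 female replicate 50 the female side held Mobp, Mog, Cldn11 and Gjc3, and Klk6 was lost (log2 difference -0.32, adjusted p = 0.057). Without the 3 libraries against their label Mog, Cldn11 and Klk6 were called and Gjc3 was not (0.08, adjusted p = 0.073). Among the 5 libraries of highest Mal, 4 were female, and without all 5 Klk6 alone was called. Leaving out whole lines left 0 calls without Arpp19, Klk6 alone without Kdm3b, Pcdh20, Ppp1ca or Rasgef1a, 2 calls without Gsg1l or Hrk, and 3 or 4 without each of the other lines. With 3 replicates per line and sex in place of 4, 0 or 1 gene was called. All of these kept the direction of the 4 genes.

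The mean of the 8 layer 5 and 6 genes was 3.35 log2 CPM in females and 3.45 in males, with none of the 8 called. With that mean as a covariate, a fit added after these values were seen, 9 of the 32 genes were called, all higher in females, where 9.41% of all tested genes were called in either direction. They were Mog, Gjc3, Cldn11, Ermn, Fa2h, Mag, Mobp, Plekhb1 and Tmem88b, with log2 differences between 0.06 and 0.15. The covariate was higher in males and correlated with the set with r = 0.45. A fit with it therefore shifts genes that follow the set toward females, and the rise in calls was fixed in part by values already seen. Klk6 was not called in that fit (-0.22, adjusted p = 0.20). The part of dissection in these values was not tested.

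At an equal oligodendrocyte score the same 4 genes were called and Klk6 stood out more. The mean of the 32 genes was 4.87 ± 0.134 log2 CPM in females and 4.85 ± 0.118 in males (SD, n = 52 each). With the mean of the 30 other oligodendrocyte genes as a covariate, Klk6 was lower in females by a log2 difference of -0.43 (SE 0.09, adjusted p = 0.00076 in edgeR's test), and Mog (0.08, adjusted p = 0.0067), Gjc3 (0.07, adjusted p = 0.016) and Cldn11 (0.08, adjusted p = 0.017) were higher. Of all tested genes 4.37% were called higher and 4.82% lower in this fit. Klk6 was called in all 10 of the alternatives run at equal score that kept it among the tested genes. Of 11 such alternatives, Cldn11 lost its call in 4 (adjusted p up to 0.10), Gjc3 in 2 (up to 0.22) and Mog in 1 (0.063).

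Related lists were read against the same background of 4.07% of all tested genes higher and 4.5% lower in females. Of the 30 other oligodendrocyte genes 3 were called, 2 higher and 1 lower. Tppp, a tubulin-binding protein, was higher in females (log2 difference 0.04, adjusted p = 0.0040), as was the adhesion protein Nfasc (0.05, adjusted p = 0.017), and Lgi3 was lower (-0.07, adjusted p = 0.019). Of the 34 alternatives run on the sex comparison, Lgi3 lost its call in 7 (adjusted p up to 0.15) and Nfasc in 2 (up to 0.38). Of the 7 precursor genes, 4 were called higher in females and none lower. They were Gpr17 (0.18), a receptor of precursors about to mature, Vcan (0.11), Cacng4 (0.11) and Neu4 (0.16). All 4, like Tppp, kept their call in the same 34 alternatives. Of 10 genes listed for myelin lipid synthesis, 4 were called lower in females and none higher. The 4 were Lss (-0.12), Fdft1 (-0.08), Cyp51 (-0.08) and Idi1 (-0.11), all enzymes of the path to cholesterol. This list hardly followed the set, its mean having an r of 0.10 with the mean of the set. Of its 10 genes, 5 had r above 0. Lss had an r of 0.12, Fdft1 -0.04, Cyp51 -0.04 and Idi1 -0.05. The part of oligodendrocytes in these 4 calls was not tested. Of Sox10, Olig1 and Olig2, none was called by sex, and Olig2 differed between lines (adjusted p = 0.043).

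No gene of the set was called for a sex difference that itself differed between lines. The interaction of line and sex called 0 of 32 genes in edgeR, against 0.0382% of all tested genes, and 1 gene, Evi2a, had an unadjusted p under 0.05, against 3.797% of all tested genes. No other tool was run on the interaction.

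Most genes of the set had lower values in the 8 libraries on plate 2, none past the test. With line and sex as terms, 30 of the 32 genes were lower on plate 2 than on plate 1, where 7990 of 15723 tested genes were. The median log2 difference was -0.11 over the 32 genes, against -0.0014 over all tested genes. Of the 32 genes 10 had an unadjusted p under 0.05, where 1970 of 15723 tested genes had. Because the 32 genes move together, these counts are not 32 separate results. None was called by edgeR (0 of 32, against 0.242% of all tested genes); no other tool was run on plates. The mean of the set was 4.75 log2 CPM on plate 2 and 4.87 on plate 1. Gpr37 had the smallest p, with a difference of -0.14 (SE 0.05, adjusted p = 0.19), and Car2 and Ppp1r14a were the 2 genes that went the other way. The median r of the shared spread and the sex calls of Mog, Cldn11 and Gjc3 held on plate 1 alone.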

How the data were processed

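Bulk RNA sequencing libraries of cerebral cortex, made with a stranded kit per the labels' protocols, were compared between 13 lines, 2 sexes and 2 plates. The deposited read counts per RefSeq gene were made by the authors; STAR 2.7.3a and HTSeq 0.10.0 are named in the submitters' processing notes, with the mm10 build. The deposited FPKM values, scaled by the authors for length and depth, were used for levels and in alternatives. The deposited Ensembl counts, whose file ends inside a line, held 19563 usable genes and 29 of the 32 genes of the set, without Mog, Tmem88b and Evi2a, and served as an alternative.

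Counts were fitted with edgeR 4.0.16 in R 4.3.3 (quasi-likelihood test, TMM scaling, filterByExpr by line and sex), with Benjamini-Hochberg adjustment over all tested genes and a call at an adjusted p under 0.05. Sex was a term in the line tests, line in the sex tests, and both in the plate test. CPM are TMM-scaled, and log2 CPM used a prior count of 2. DESeq2 1.42.0 and limma 3.58.1 on log2(FPKM + 0.1) or log2(FPKM + 1) were alternatives. The scripts were tested on simulated data. Scores are means of log2 CPM over a list. The labels number the libraries without saying that each is a separate mouse, so p-values measure the spread between these samples.

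The genes of the set and all lists were chosen with earlier results of these data known, so correlations are descriptions without a test. All genes of the set could be named; given in full are those with the 4 highest and 4 lowest r with the rest, the 4 largest SDs and the called genes. Of other genes, those among the 12 highest and the lowest by r with the mean are named, except 1 that is not reported here. Libraries held 3.39 to 33.5 M reads, which limits the lowest genes (Klk6, Ninj2). Alternatives chosen after seeing the data were the fits without single libraries, without the 5 of highest Mal or without the shallowest, the layer and meningeal covariates, and the spread without Apod.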

Additional observations from a re-analysis of the deposited data

Results flagged for a closer look

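Each gene of the set and the mean of the set were looked at within each line of 8 libraries for a library whose gap to its nearest neighbour exceeds Dixon's 95% critical value for 8 values. Of 429 such groups 58 passed, and 17 libraries were named at least once. Separate groups would pass about 1 in 20 times by chance. These groups are not separate, because the genes move together and share the libraries, so the count is no test against that rate. The values of the genes described above follow by library.

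Zswim6 female replicate 50 was named 15 times, always as the lowest of its line among the genes given here. Its mean of the set was 4.35 log2 CPM. It held 728 CPM of Mbp, 17.1 CPM of Mog, 65.8 CPM of Mag, 92.3 CPM of Trf, 84.7 CPM of Qdpr, 26.1 CPM of Tmem88b and 0.388 CPM of Ninj2. Its mean of the other oligodendrocyte genes, 4.47 log2 CPM, was also the lowest of all libraries.

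Ece2 male replicate 12 was named 10 times and went both ways. It was high in Mobp (200.1 CPM) and Mal (165 CPM) and low in Ugt8a (17.7 CPM), Gsn (21.8 CPM), Ninj2 (0.327 CPM) and Ppp1r14a (1.89 CPM).

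Gsg1l female replicate 14, named 8 times, was high in Mobp (198 CPM), Mal (171 CPM), Cldn11 (59.1 CPM) and Gjc3 (39.4 CPM), and low in Car2 (93.8 CPM). Ppp1ca female replicate 36 was likewise high in Mobp (179 CPM) and Mal (154 CPM).

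Morf4l1 male replicate 26, named 6 times, was high in Trf (259 CPM) and low in Cldn11 (24.6 CPM) and Opalin (4.79 CPM). Rgs9 female replicate 43, a library against its label, was high in Trf (211 CPM) and low in Opalin (5.67 CPM).

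Other libraries were named 1 to 3 times. Ugt8a was high in Arpp19 female replicate 1 (33.6 CPM) and Pcdh20 female replicate 30 (39.6 CPM), Mog was low in Ppp1ca male replicate 35 (18.5 CPM), Ninj2 was low in Rgs9 male replicate 44 (0.507 CPM), and Ppp1r14a was low in Kdm3b female replicate 22 (2.07 CPM), the shallowest library. Hrk male replicate 17, Dach1 male replicate 6, Gsg1l male replicate 14, Kdm3b male replicates 22 and 23 and Rasgef1a male replicate 37 were named in Fa2h, Evi2a, Nkx6-2, Myrf or Aspa.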

How the results depend on the processing

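The shared spread kept its size, with a median r between 0.61 and 0.69 over 12 alternatives. The F-test over lines, 0 calls as reported, gave 0 to 5 calls with a replicate or a line left out, 2 without the 2 libraries farthest from the median, 4 without the 5 libraries of highest Mal and 1 without Gsg1l female replicate 14. Gene and line pairs, 1 call as reported, gave 0 to 9 calls with a replicate left out, 2 in DESeq2 (Myrf in Gsg1l beside Ugt8a), 10 without the 5 libraries, 8 without the Gsg1l library and 3 without Zswim6 female replicate 50. The sex test, 4 calls as reported, gave 0 to 4 with a replicate or a line left out, 9 with the layer 5 and 6 score, and 1 without the 5 libraries or without the Gsg1l library. At equal oligodendrocyte score the lines gave 0 to 4 calls with a replicate left out, 6 without the 5 libraries and 1 in DESeq2, against 0 as reported. The sexes at equal score gave 1 to 5 with a replicate left out, against 4. The interaction and the plates stayed at 0 calls under the alternatives run. Mal in Gsg1l, -0.05 as reported and not called, ran from -0.27 to 0.065 with a replicate left out, and turned positive without the first (0.02) and the fourth (0.065) replicates. Where no value above shows a cause, the cause was not tested.

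No label says that replicate numbers pair females with males. Over 52 same-numbered pairs the deviations correlated with a median r of 0.02, and 8 pairs were above 0.1. A low correlation cannot show that the numbers pair no animals. With the number as a replicate block, 4 genes were called by sex, the same 4, and 4 at equal score. Depth limits Klk6 and Ninj2, whose counts are low.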
